A study of Homo sapiens with 6 samples.

Results

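The genes described here encode Wnt ligands, their receptors and the proteins that carry the signal into the nucleus. They were taken by symbol from the families WNT, FZD, DVL, SFRP, LRP5 and LRP6, ROR, RSPO, APC, GSK3, CSNK1, TCF7, BCL9, PYGO and TLE, with DKK2 to DKK4, LEF1, PORCN, WLS and AXIN1. Of 14812 genes named on the array, 41 matched, measured by 42 probe sets. They comprise 38 protein-coding genes and 3 long non-coding RNAs whose symbols derive from a family name. The rule that chose them uses symbols and no measured value, though it was written with earlier results of these data known.

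Wnt proteins are lipid-modified ligands that bind Frizzled receptors with the co-receptors LRP5 or LRP6. Without ligand, a complex of APC, axin, glycogen synthase kinase 3 and casein kinase 1 marks beta-catenin for degradation. With ligand, Dishevelled proteins disable that complex, and beta-catenin enters the nucleus, where it binds TCF/LEF factors, recruits BCL9 and Pygopus and displaces TLE corepressors. In the intestine the pathway sustains the crypt stem cells, and colorectal tumours commonly carry mutations that keep it active.

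RNA was measured on Affymetrix arrays in LS180, an established human colorectal adenocarcinoma cell line. The arrays form 3 pairs: cells given CTNNB1 siRNA (beta-catenin) against a control siRNA, cells given MYC siRNA (a transcription factor) against a control siRNA, and cells given siRNA to the long non-coding RNA MYU, also named VPS9D1-AS1, against a control siRNA. Each group has 1 array. In their titles, the controls of the CTNNB1 and MYC knockdowns share the number 1, while the control for MYU has the number 2, and whether the controls with the same number are a single hybridisation is not known. The sources used here do not give the dose and time of the siRNA treatment.

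The deposited values are mirror images within a pair, so that each gene keeps a single number, its log2 difference (siRNA minus its own control). Levels are gone, and with them any check of whether a gene is expressed in LS180 at all. The number of arrays limits the precision: there are no replicates, no p-value is given, and "higher" and "lower" describe these arrays alone. In cells in bulk, less RNA per cell and fewer cells with the RNA cannot be told apart. MYC had a difference of -1.18 with MYC siRNA, -2.38 with CTNNB1 siRNA and 0.04 with MYU siRNA. MYU had a difference of -0.50 with its own siRNA, beside -0.24 in the MYC pair and -0.53 in the CTNNB1 pair. The labels disagree on the target of the CTNNB1 siRNA array, whose treatment tag reads CTNNB2, and CTNNB1 itself was not analysed here. Markers of colorectal epithelium could be read only as differences. With CTNNB1 siRNA these ran between -0.42 and 4.39 over 9 of 12 listed genes, with 4 of the 9 at least 2-fold higher. They ran between -0.40 and 1.16 with MYC siRNA and between -0.73 and 0.20 with MYU siRNA, with KRT20 at 1.16 and -0.73. With CTNNB1 siRNA, of 3 fibroblast markers measured LUM had 2.78, DCN 0.01 and THY1 -0.04, of 2 leukocyte markers CD68 had 2.65 and CD14 -0.03, and the endothelial markers VWF and KDR had 0.02 and 0.04. CD68 had 0.48 with both MYC and MYU siRNA, where the other 6 of these markers lay between -0.06 and 0.22. The part of other cells or of a changed cell state in the results below was not tested.

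Across the 41 genes, differences were small. With CTNNB1 siRNA 3 of 41 (7.32%) lay past 2-fold, 1 higher and 2 lower, against 6.94% of all genes (2.80% higher and 4.14% lower). At 1.5-fold the count was 6 of 41 (14.6%), 3 higher and 3 lower, against 16.2% of all genes. The members therefore stood apart from their control about as often as any gene in that pair. With MYC siRNA 0 of 41 reached 2-fold, where 0.857% of all genes did (0.412% higher and 0.446% lower), and 0 of 41 reached 1.5-fold, against 5.79% of all genes. With MYU siRNA 0 of 41 reached 2-fold, against 0.155% of all genes (0.0608% higher and 0.0945% lower), and 1 of 41 (2.44%) reached 1.5-fold, against 1.88% of all genes. No test of a list was made.

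**Figure D1:**
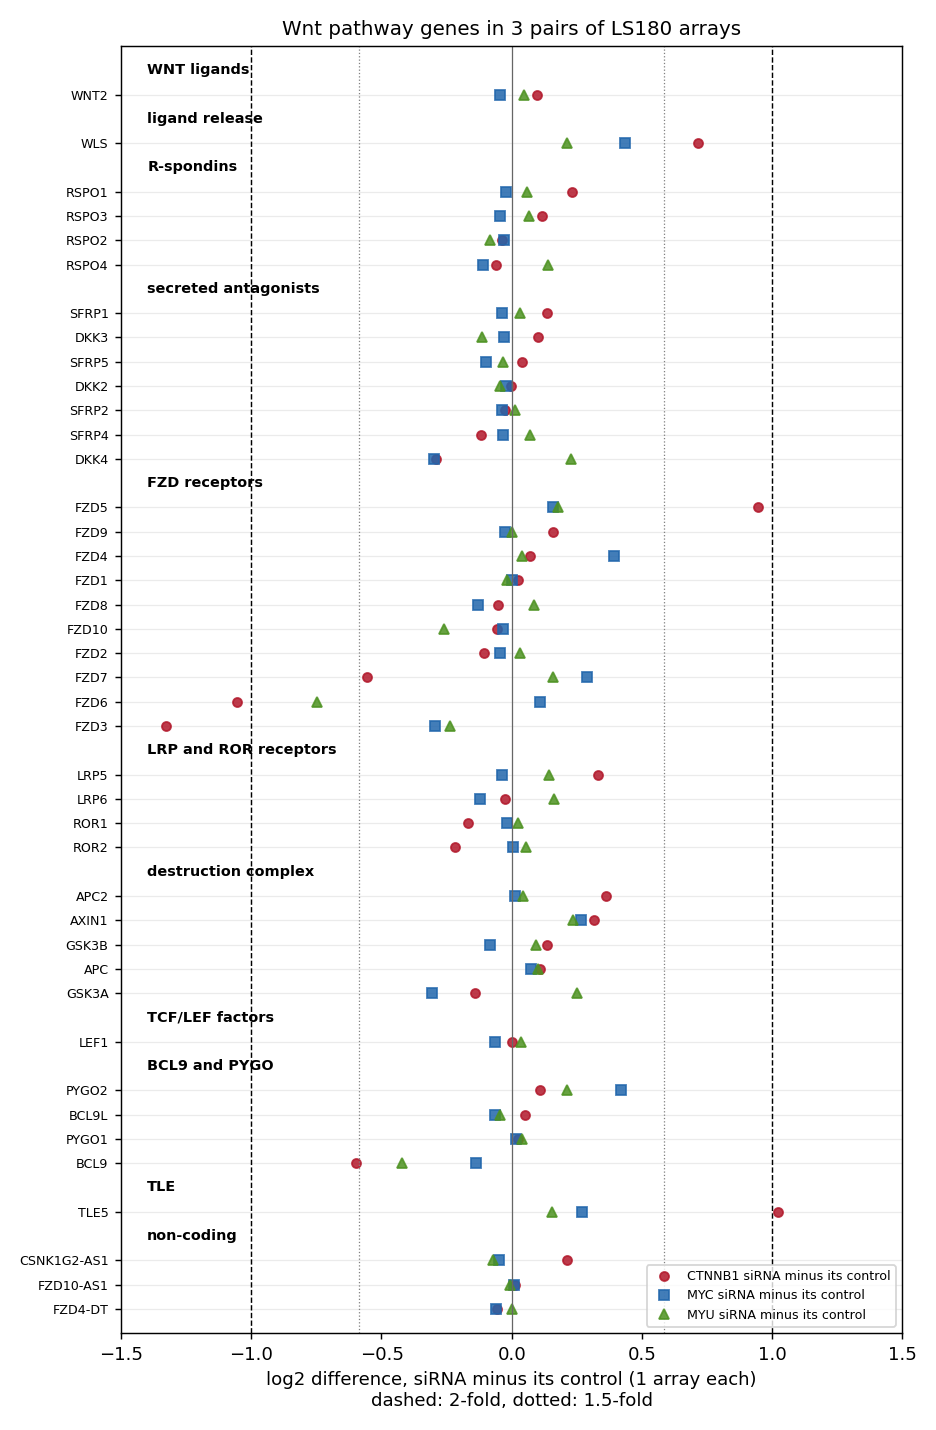
Log2 difference (horizontal axis, siRNA minus its control, 1 array on either side) of each of the 41 genes, grouped by role, in the CTNNB1 (circles), MYC (squares) and MYU (triangles) pairs. Dashed lines mark 2-fold and dotted lines 1.5-fold: FZD3 and FZD6 lie beyond the dashed line on the low side and TLE5 on the high side, all in the CTNNB1 pair.

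The median size of a difference was 0.12 over the members and 0.13 over all genes for CTNNB1 siRNA, 0.06 and 0.09 for MYC siRNA, and 0.07 and 0.08 for MYU siRNA. Signed medians over the members lay at 0.02 for CTNNB1 siRNA, -0.03 for MYC siRNA and 0.04 for MYU siRNA, and over all genes at 0 in each pair. The balance of signs differed among pairs. With CTNNB1 siRNA 22 members were above 0 and 18 below (53.7% above, against 48.9% of all genes). With MYC siRNA 13 were above 0 and 27 below (31.7% above, against 48.0%), and with MYU siRNA 27 were above 0 and 12 below (65.9% above, against 48.7%). Many of these values were close to 0. Within 0.1 of it lay 16 members with CTNNB1 siRNA (39.0%, against 43.2% of all genes), 25 with MYC siRNA (61.0%, against 51.8%) and 24 with MYU siRNA (58.5%, against 57.1%).

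**Figure D2:**
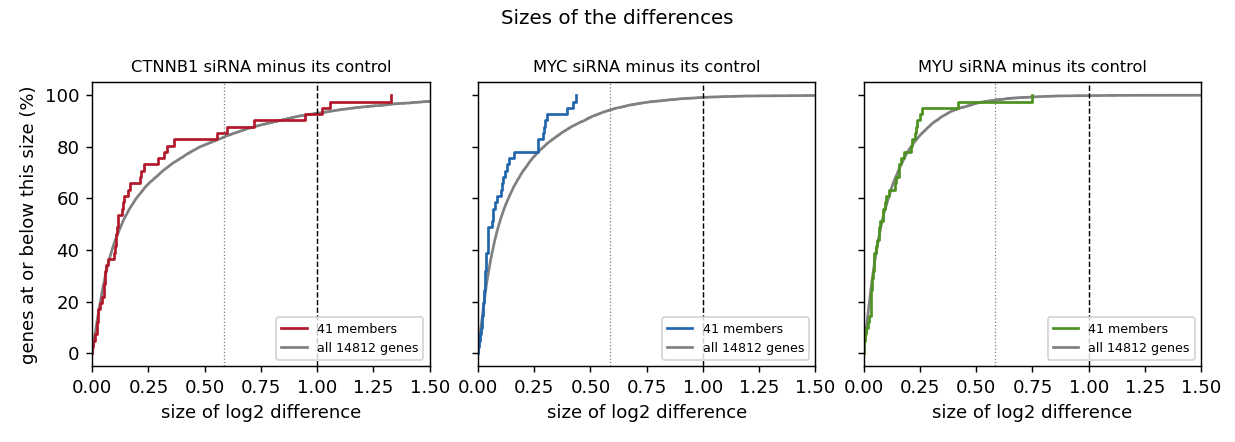
Share of genes (vertical axis, percent) whose log2 difference is at or below a given size (horizontal axis, sign ignored), for the 41 members (coloured) and all 14812 genes (grey) in each pair. The coloured and grey lines run close together in the CTNNB1 and MYU pairs, and in the MYC pair the members end at 0.44, short of both thresholds.

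WNT2 was the only WNT ligand among the named genes, and the other 18 WNT genes were not analysed here. Its differences were 0.10 with CTNNB1 siRNA, -0.04 with MYC siRNA and 0.05 with MYU siRNA. WLS encodes the membrane carrier that brings Wnt proteins to the cell surface. Its deposited value in the CTNNB1 pair was 0.36 in the siRNA array, against -0.36 in the control, a 1.64-fold higher signal (0.72). With MYC siRNA it was 0.22, against -0.22 in the control (0.44, 1.35-fold), and with MYU siRNA 0.11, against -0.11 in the control (0.21, 1.16-fold). WLS was thus above its control in all 3 pairs and ranked high in each, with 4.81% of all genes above it with CTNNB1 siRNA, 4.83% with MYC siRNA and 8.95% with MYU siRNA. It held the highest value of any member in the MYC pair. PORCN, the acyltransferase that attaches the lipid, was not analysed here.

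R-spondins are secreted proteins that amplify Wnt signalling by removing receptor-degrading ligases from the membrane. The 4 R-spondin genes stayed within 0.24 of 0 in every pair, the furthest being RSPO1 at 0.23 with CTNNB1 siRNA. All 4 were below 0 with MYC siRNA, but by no more than RSPO4's -0.11. With that siRNA 27 of the 41 members and 7312 of all 14812 genes were below 0. In the order CTNNB1, MYC and MYU siRNA, RSPO3 had 0.12, -0.04 and 0.07, and RSPO2 had -0.04, -0.03 and -0.08.

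Secreted antagonists either bind Wnt proteins directly, as the SFRP proteins do, or block the LRP co-receptors, as DKK2 and DKK4 do. Of 7 such genes 0 were 1.5-fold apart in any pair. Over all genes the shares were 16.2% with CTNNB1 siRNA, 5.79% with MYC siRNA and 1.88% with MYU siRNA. DKK4 had the largest differences, -0.29 with CTNNB1 siRNA and -0.30 with MYC siRNA, and it was on the other side of 0 with MYU siRNA (0.23). In the same order of siRNAs, SFRP1 had 0.13, -0.04 and 0.03 and SFRP4 -0.12, -0.03 and 0.07. DKK3, a family member whose part in Wnt signalling is less settled, had 0.10, -0.03 and -0.11. SFRP5 had 0.04, -0.10 and -0.03, and DKK2 and SFRP2 lay between -0.04 and 0.01 throughout. All 7 genes were below 0 in the MYC pair, where the 6 besides DKK4 lay between -0.10 and -0.02. Below 0 in that pair were also 27 of the 41 members and 7312 of all 14812 genes.

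Of the role groups, the Frizzled receptors had the widest range in the CTNNB1 pair, but they are also the largest group. All 10 human FZD genes were measured, and there they ran between -1.33 and 0.95. The central 95% of all genes in that pair ran between -1.26 and 1.06. FZD3, a receptor best known from mouse studies of axon guidance and planar polarity, had a deposited value of -0.66 in the siRNA array, against 0.66 in the control. It was therefore 2.51-fold lower (-1.33), the lowest of the 41 genes, with 2.12% of all genes below it. Its differences with MYC siRNA (-0.29) and MYU siRNA (-0.24) had the same sign at less than 1.5-fold.

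FZD6, which acts with FZD3 in planar polarity in the mouse, was at -0.53 in the CTNNB1 siRNA array, against 0.53 in the control, or 2.08-fold lower (-1.06). With MYU siRNA it was at -0.37, against 0.37 in the control, 1.68-fold lower (-0.75). Only 0.452% of all genes had a lower value in the MYU pair, and FZD6 was the single member past 1.5-fold there. With MYC siRNA it was at 0.05, against -0.05 in the control (0.11, 1.08-fold). FZD6 was thus below its control in the CTNNB1 and MYU pairs and slightly above it in the MYC pair. A running median of the MYU differences over gene length was 0 at the length of FZD6, so taking it out could not move FZD6 from -0.75.

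FZD5, a receptor that Paneth cells need for their maturation in the mouse, went the other way. It was at 0.47 in the CTNNB1 siRNA array, against -0.47 in the control, 1.93-fold higher (0.95), just short of 2-fold. With MYC siRNA and MYU siRNA its differences were 0.16 and 0.18. FZD7, a receptor of intestinal stem cells in the mouse, was at -0.28 in the CTNNB1 siRNA array, against 0.28 in the control (-0.56, 1.47-fold lower), just short of 1.5-fold. It was above 0 with MYC siRNA (0.29) and MYU siRNA (0.16). In the CTNNB1 pair 2 of the 10 receptor genes lay past 2-fold on the low side, where 4.14% of all genes did. FZD5 was on the high side at 1.93-fold, and 6 genes lay within 0.16 of 0. Whether the receptors differ from other genes was not tested.

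FZD4, the receptor of the ligand norrin, had its largest difference with MYC siRNA, where it was at 0.20, against -0.20 in the control (0.39, 1.31-fold). Its differences were 0.07 with CTNNB1 siRNA and 0.04 with MYU siRNA. FZD4-DT, a long non-coding RNA named as the divergent transcript of FZD4, had -0.06 with MYC siRNA. FZD10 had -0.26 with MYU siRNA, and its antisense RNA FZD10-AS1 had -0.01 there. FZD1, FZD2, FZD8 and FZD9 lay between -0.13 and 0.16 in all 3 pairs.

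**Figure D3:**
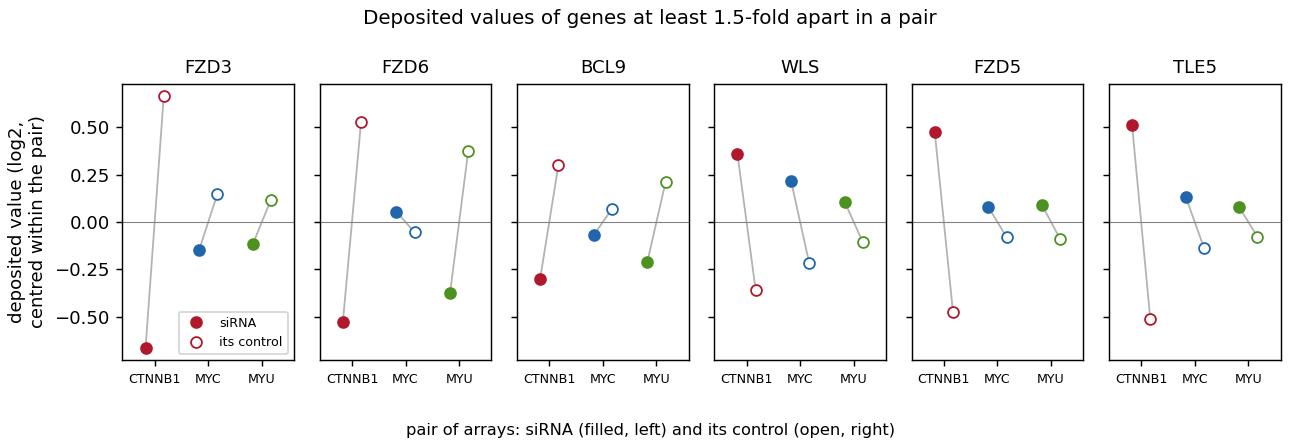
Deposited values (vertical axis, log2, centred within each pair by the authors) of the 6 genes at least 1.5-fold apart in a pair, with each siRNA array (filled, left) beside its control (open, right). FZD3 and BCL9 were below their controls in all 3 pairs and WLS, FZD5 and TLE5 above them, while FZD6 was below in the CTNNB1 and MYU pairs and slightly above in the MYC pair.

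The LRP co-receptor genes and the ROR genes lay between -0.22 and 0.33 in all 3 pairs. LRP5 had 0.33 with CTNNB1 siRNA, -0.04 with MYC siRNA and 0.15 with MYU siRNA, and LRP6 had -0.03, -0.12 and 0.16. Both were above 0 in the MYU pair, as were ROR1 (0.02) and ROR2 (0.05), tyrosine kinase receptors for WNT5A. So were 27 of the 41 members and 48.7% of all genes. ROR2 had -0.22 and ROR1 -0.17 with CTNNB1 siRNA. None of these 4 genes reached 1.5-fold in any pair, where 16.2% (CTNNB1), 5.79% (MYC) and 1.88% (MYU) of all genes did. The 3 Dishevelled genes DVL1 to DVL3, which pass the signal on from the receptor, were not analysed here.

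The destruction complex was measured through 5 genes, and 0 of them were 1.5-fold apart. Of all genes 16.2% were with CTNNB1 siRNA, 5.79% with MYC siRNA and 1.88% with MYU siRNA. AXIN1, the scaffold of the complex, had values close to each other in the pairs: 0.32 with CTNNB1 siRNA, 0.27 with MYC siRNA and 0.23 with MYU siRNA. APC, the tumour suppressor that holds beta-catenin in the complex, had 0.11, 0.08 and 0.10 in the same order. APC2, its relative, had 0.36 with CTNNB1 siRNA and lay within 0.05 of 0 in the other pairs. GSK3A and GSK3B encode the kinases that mark beta-catenin. GSK3A had -0.14 with CTNNB1 siRNA, -0.31 with MYC siRNA and 0.25 with MYU siRNA, and its MYC value was the lowest of any member in that pair. GSK3B had 0.13, -0.08 and 0.09. All 5 genes were above 0 in the MYU pair, between 0.04 and 0.25. In that pair 27 of the 41 members and 48.7% of all genes were above 0. The 7 casein kinase 1 genes were not analysed here. CSNK1G2-AS1, an antisense RNA that matched by its symbol, encodes no kinase and had 0.21, -0.05 and -0.07.

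In the nucleus, LEF1 was the only measured gene of the TCF/LEF family, the DNA-binding partners of beta-catenin. It had a difference of exactly 0 with CTNNB1 siRNA, -0.07 with MYC siRNA and 0.03 with MYU siRNA. With CTNNB1 siRNA 336 of all 14812 genes were at exactly 0. TCF7, TCF7L1 and TCF7L2 were not analysed here. BCL9 encodes the adaptor that links beta-catenin to Pygopus. It was at -0.30 in the CTNNB1 siRNA array, against 0.30 in the control, 1.51-fold lower (-0.60), and at -0.21 in the MYU siRNA array, against 0.21 in the control, 1.34-fold lower (-0.42). With MYC siRNA it had -0.14. BCL9 was below its control in all 3 pairs, and 3.04% of all genes were lower in the MYU pair. Its paralog BCL9L lay within 0.07 of 0 in every pair as the mean of 2 probe sets, which disagreed in sign with CTNNB1 siRNA (-0.07 and 0.17), MYC siRNA (0.05 and -0.18) and MYU siRNA (-0.12 and 0.03). PYGO2, a Pygopus gene that reads histone methylation, had its largest value with MYC siRNA (0.42, 1.34-fold), beside 0.11 with CTNNB1 siRNA and 0.21 with MYU siRNA. PYGO1 stayed within 0.04 of 0.

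TLE5, formerly AES, encodes a short member of the Groucho/TLE family that lacks the WD repeats of the long members. It was at 0.51 in the CTNNB1 siRNA array, against -0.51 in the control, 2.03-fold higher (1.02), just past 2-fold and the highest of the 41 genes. With MYC siRNA it had 0.27 (1.20-fold) and with MYU siRNA 0.16 (1.11-fold). TLE1 to TLE4 and TLE6 were not analysed here.

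Over all 3 pairs, 9 members (22.0%) were above 0 each time, against 16.3% of all genes, namely APC, APC2, AXIN1, FZD4, FZD5, PYGO1, PYGO2, TLE5 and WLS. Another 5 (12.2%) were below 0 each time, against 17.3% of all genes, namely BCL9, DKK2, FZD10, FZD3 and RSPO2. The CTNNB1 and MYC pairs may share a control array, in which case their signs would not be independent. A further group of 10 members (24.4%) lay within 0.1 of 0 in every pair, against 27.6% of all genes. It held WNT2, RSPO2, DKK2, SFRP2, FZD1, LEF1, PYGO1, BCL9L and both FZD antisense or divergent RNAs. Without levels, a gene that is off in LS180 cannot be told apart from an expressed gene with equal values.

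Promoters are shown for 4 of the 6 members at least 1.5-fold apart with CTNNB1 siRNA, because beta-catenin acts on genes through TCF/LEF factors, whose sites contain CTTTG. Each window runs from 250 bases before to 50 after a RefSeq transcription start (assembly GRCh38.p14), 5′ to 3′ on the gene's strand, and capitals mark CTTTG or its reverse complement. They are FZD5 (chr2:207769857-207770156, minus strand), WLS (chr1:68232474-68232773, minus), TLE5 at its upstream start (chr19:3062917-3063216, minus) and at its downstream start (chr19:3062446-3062745, minus), and BCL9 (chr1:147541251-147541550, plus). None is shown for FZD3 and FZD6, which had the largest differences in that pair, because no window was at hand for them.
FZD5: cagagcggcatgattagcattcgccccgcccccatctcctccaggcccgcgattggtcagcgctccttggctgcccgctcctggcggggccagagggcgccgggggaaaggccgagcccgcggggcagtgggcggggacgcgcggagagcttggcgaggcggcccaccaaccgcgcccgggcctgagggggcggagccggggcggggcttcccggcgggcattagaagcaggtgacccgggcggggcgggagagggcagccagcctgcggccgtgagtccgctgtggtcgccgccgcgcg
WLS: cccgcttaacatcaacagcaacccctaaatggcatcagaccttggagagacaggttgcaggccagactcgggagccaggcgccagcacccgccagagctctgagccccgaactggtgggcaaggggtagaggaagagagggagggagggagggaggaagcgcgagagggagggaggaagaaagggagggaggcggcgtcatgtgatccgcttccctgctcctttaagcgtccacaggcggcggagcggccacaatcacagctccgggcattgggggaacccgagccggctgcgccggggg
TLE5, upstream start: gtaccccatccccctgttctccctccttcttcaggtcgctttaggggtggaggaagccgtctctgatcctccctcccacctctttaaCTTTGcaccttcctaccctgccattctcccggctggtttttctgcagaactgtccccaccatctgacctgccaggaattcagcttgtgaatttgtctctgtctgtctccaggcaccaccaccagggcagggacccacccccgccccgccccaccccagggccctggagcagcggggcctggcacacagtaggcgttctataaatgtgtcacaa
TLE5, downstream start: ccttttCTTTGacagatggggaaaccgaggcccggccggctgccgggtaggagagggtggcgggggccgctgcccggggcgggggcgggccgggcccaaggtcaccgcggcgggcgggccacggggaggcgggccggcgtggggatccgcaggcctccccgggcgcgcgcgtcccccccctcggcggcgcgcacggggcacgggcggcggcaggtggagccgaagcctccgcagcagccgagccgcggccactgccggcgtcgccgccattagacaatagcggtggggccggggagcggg
BCL9: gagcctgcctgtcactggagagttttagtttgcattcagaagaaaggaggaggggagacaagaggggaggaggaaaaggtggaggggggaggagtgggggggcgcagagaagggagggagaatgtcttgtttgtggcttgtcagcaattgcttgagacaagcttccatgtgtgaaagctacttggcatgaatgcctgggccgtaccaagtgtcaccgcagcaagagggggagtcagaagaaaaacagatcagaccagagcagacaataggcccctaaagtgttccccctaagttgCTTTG

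CTTTG or its reverse complement occurred 1 time in either TLE5 window and 1 time at the end of the BCL9 window, and 0 times in the FZD5 and WLS windows. RefSeq windows were at hand for 27 of the 41 genes, 32 windows in all. FZD3, FZD6 and FZD7 were among the genes without one, so the counts below do not cover them. CTTTG was in 7 of these 32 (21.9%), in BCL9, FZD1, LEF1, ROR2, RSPO3 and TLE5, against 43.5% of 22199 windows of protein-coding genes and 47.5% of all 35116 windows. The longer word CTTTGAT and its variants ending in TT (CTTTGTT), in AA (CTTTGAA) and in TA (CTTTGTA), each of which contains the core, were in 0 of 32 on either strand, against 11.2% of protein-coding windows. CACGTG, the E-box that MYC binds, was in 3 of 32 (9.38%), in windows of APC, APC2 and RSPO4, against 8.34%. The GC-box GGGCGG was in 25 of 32 (78.1%), against 56.3% of protein-coding windows. The members' windows were also richer in G and C, with a median of 69.2%, against 62.3%. A match is a description of letters, and these windows do not cover enhancers.

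Other genes of the pathway were read from 5 lists, with 90 measured genes when joined. With CTNNB1 siRNA 8 of 90 (8.89%) were 2-fold apart, 2 higher and 6 lower, against 6.94% of all genes. With MYC siRNA 0 were, against 0.857% of all genes, and with MYU siRNA 0, against 0.155%. These shares are near the background. AXIN2, the axin made in response to Wnt signalling, was lowest at -2.23, beside AXIN1, a member, at 0.32. ZNRF3 and RNF43, the ligases that remove Frizzled receptors from the membrane and the targets of R-spondin action, had -1.53 and -1.48. With MYC siRNA they had -0.76 and -0.44, and with MYU siRNA -0.04 and -0.34. LGR4, a receptor for R-spondins, was on the other side at 1.20 with CTNNB1 siRNA, and it lay within 0.08 of 0 in the other pairs. JUP, the plakoglobin gene, had 1.38. RUVBL1 and RUVBL2, helicase genes whose products bind beta-catenin, had -1.10 and -1.28 with CTNNB1 siRNA and -0.69 and -0.61 with MYC siRNA. TMEM131L, a membrane protein reported to promote loss of LRP6, had -1.09.

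By list, membrane regulators had 3 of 20 genes 2-fold apart with CTNNB1 siRNA, destruction complex partners 2 of 16 and nuclear cofactors 3 of 19, where 6.94% of all genes were, and no list was tested. The planar polarity list (13 genes) and the list of secretion genes, glypicans and other surface partners (23 genes) had 0. DAAM1, a formin of the planar polarity branch, had 0.72 with CTNNB1 siRNA, and RYK, a further Wnt receptor, had -0.54. Among surface partners CAPRIN2 had 0.92, LRP4 -0.89 and the glypican gene GPC4 -0.88. NLK, a kinase that acts on TCF/LEF factors, had -0.64 with MYU siRNA, the lowest value of the 90 genes in that pair.

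**Figure D4:**
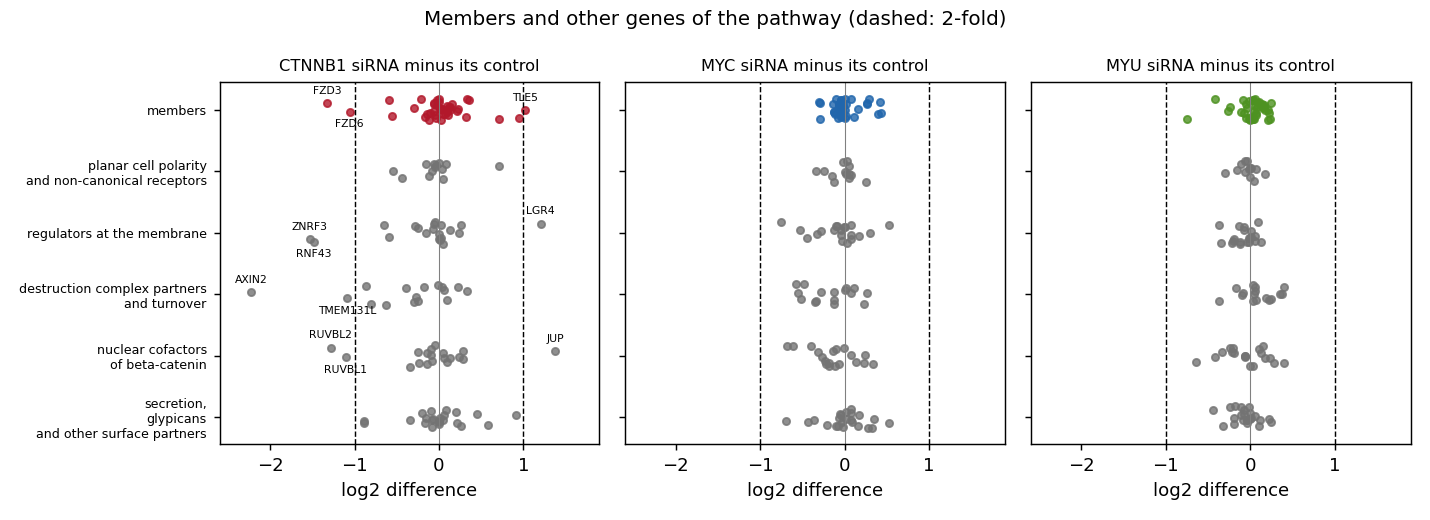
Log2 difference (horizontal axis, siRNA minus its control) of the members (top row, coloured) and of the genes of 5 other lists of the pathway (grey), by pair, with 2-fold as dashed lines and names for genes beyond it. Points beyond 2-fold occur in the CTNNB1 pair alone, where AXIN2 lies furthest out at -2.23; vertical scatter within a row has no meaning.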

How the data were processed

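Per the labels' protocols, TRIsure was used to prepare RNA of the 6 LS180 samples, and biotin labelling followed the Affymetrix standard. The sources used here do not give the background correction, normalization or probe summarisation. The authors deposited log2 expression values, centred within each pair, as the siRNA and control values add up to 0 within 1e-06. The log base was assumed to be 2. Arrays were used as deposited, and 1 difference per probe set, siRNA minus its control, was taken.

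Of 44629 probe sets, 15835 were kept as listed with a single gene symbol, all matched to RefSeq (GRCh38.p14), giving 14812 genes. Any probe set listed with several symbols was left out. Where a gene had several probe sets (651 genes), their mean was used. With 1 array per group no test was run. Genes were counted at 2-fold and 1.5-fold. The members, roles and lists were chosen with earlier results of these data known. Named are members past 1.5-fold, up to 3 per role with the largest differences, core components whatever their values, and list genes past 2-fold; other members and a few list genes near these were named after their values were seen. Alternatives were centring on the array median, the probe set nearest to or farthest from 0, protein-coding members only, and, for MYU siRNA, removal of a running median over 501 genes ordered by length. Code was checked on simulated data with 200 changed genes. Python 3.11.15, numpy 2.4.6, pandas 2.3.3 and matplotlib 3.10.9 were used.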

Additional observations from a re-analysis of the deposited data

How the results depend on the processing

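The counts at 2-fold and 1.5-fold were equal to those reported in 26 of 26 alternative values. These settings had little room to change a count. In the MYU pair the members nearest to 1.5-fold (0.585) were FZD6 (-0.75) and BCL9 (-0.42). Removing the length trend moved no member there by more than 0.042. BCL9L, the only member with 2 probe sets, and the non-coding members lay well short of 1.5-fold. The median of the members kept its sign. In the CTNNB1 pair it was 0.015 with the probe set nearest to 0, against 0.023 as reported. It ran between -0.034 and -0.031 with MYC siRNA and between 0.038 and 0.047 with MYU siRNA. There is no spread between replicates to set these shifts against. BCL9L, the member with 2 probe sets, moved by up to 0.12 with the choice of probe set, and removal of the length trend moved members by up to 0.04 in the MYU pair. Centring each array on its median moved nothing, since the medians over genes were already 0. TLE5 (1.02) and FZD6 (-1.06) lie just past 2-fold, FZD5 (0.95) just short of it, BCL9 (-0.60) just past 1.5-fold and FZD7 (-0.56) just short of it. All differences were taken within a pair, and with 1 pair per knockdown no spread between pairs could be estimated. No array was left out in turn, since each group has 1. Centred values hold no levels, so signal over background and a filter on dim probes were not available.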
